A study of Rattus norvegicus with 11 samples.

Results

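The first complexes of the mitochondrial respiratory chain and the carrier that follows them were read in rat heart by 8 probe sets out of 8799 on the array. They were all probe sets whose platform annotation named Ndufv2, Ndufa5, Sdha, Uqcrc2, Uqcrfs1 or Cycs. Of the 8 probe sets, 7 carried a single symbol and covered 5 genes, with 1 each for Ndufv2 (M22756_at), Ndufa5 (D86215_at), Sdha (rc_AA800250_at) and Uqcrc2 (rc_AI235358_at) and 3 for Uqcrfs1 (M24542cds_at, M24542cds_g_at and rc_AI103911_at). The 8th, rc_AI008815_s_at, carried the symbols Cycs, Cycsl1 and Cycs-ps9, the last of which RefSeq lists as a pseudogene. Its signal cannot be assigned to Cycs alone, so it is called the cytochrome c family probe set here. A probe set gives 1 intensity from several short probes against the same transcript.

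Each array read total RNA of the ventricles of Fischer-344 rats, which are inbred and much used in ageing research. The old group held 6 arrays from rats aged 22 months, and the young group held 5 arrays from rats aged 4 months. No treatment, genotype or sex is given in the labels, and they do not tell whether the arrays stand for different animals. The p-values therefore rest on how far these samples vary, and that variation may be technical.

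Complex I takes electrons from NADH, and complex II takes them from succinate. Both pass them to ubiquinone, from which complex III hands them to cytochrome c, the small soluble carrier that delivers them to cytochrome oxidase. Complexes I and III pump protons as they do so, and heart muscle, which beats without pause, depends on this chain for most of its ATP. Ndufv2 and Ndufa5 are subunits of the peripheral arm of complex I, which stands in the matrix. Ndufv2 holds an iron-sulfur cluster beside the site where NADH is oxidised, and Ndufa5 is an accessory subunit with no redox centre. Sdha is the flavoprotein of succinate dehydrogenase, which belongs to both complex II and the citric acid cycle. Uqcrc2 is a core subunit of complex III, and Uqcrfs1 is the Rieske iron-sulfur protein, whose moving head carries electrons within that complex. Cytochrome c also takes part in apoptosis when it leaves the mitochondrion.

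Nuclear genes of this chain are known targets of the transcription factors NRF1 and GABP (NRF2) and, for cytochrome c, of CREB. The RefSeq table of GRCr8 gave a promoter for 6 of 6 genes, and 160 bases before each start are shown because the genes are described together below. Capitals mark matches, on either strand, to GCGCA, any base and then GCGC for NRF1, CCGGAAG for the ETS family that includes GABP, and TGACGT for the core of a CREB element. The stretches lie at chr9:113157521-113157680 on the minus strand for Ndufv2, chr4:53971236-53971395 on the minus strand for Ndufa5, chr1:30764393-30764552 on the plus strand for Sdha, chr1:184599080-184599239 on the plus strand for Uqcrc2, chr17:34186442-34186601 on the plus strand for Uqcrfs1 and chr4:80984768-80984927 on the minus strand for Cycs. For Ndufv2 and Uqcrfs1 they lie partly or wholly inside the annotated gene interval, which begins further upstream than the start used.
Ndufv2: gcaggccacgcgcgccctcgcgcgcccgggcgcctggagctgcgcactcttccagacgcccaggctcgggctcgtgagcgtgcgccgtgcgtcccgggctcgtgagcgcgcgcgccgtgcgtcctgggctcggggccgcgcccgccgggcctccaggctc
Ndufa5: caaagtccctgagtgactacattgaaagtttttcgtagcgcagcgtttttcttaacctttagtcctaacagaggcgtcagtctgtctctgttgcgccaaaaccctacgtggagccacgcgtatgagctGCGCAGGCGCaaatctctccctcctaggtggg
Sdha: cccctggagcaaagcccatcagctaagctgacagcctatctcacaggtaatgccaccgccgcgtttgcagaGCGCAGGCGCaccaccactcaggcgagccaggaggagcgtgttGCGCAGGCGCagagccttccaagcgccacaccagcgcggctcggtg
Uqcrc2: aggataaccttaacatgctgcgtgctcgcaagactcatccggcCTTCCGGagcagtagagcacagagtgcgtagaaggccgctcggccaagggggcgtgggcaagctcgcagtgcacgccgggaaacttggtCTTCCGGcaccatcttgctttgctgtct
Uqcrfs1: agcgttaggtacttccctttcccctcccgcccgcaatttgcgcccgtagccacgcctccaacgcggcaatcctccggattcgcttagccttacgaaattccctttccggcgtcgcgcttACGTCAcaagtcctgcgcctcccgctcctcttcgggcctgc
Cycs: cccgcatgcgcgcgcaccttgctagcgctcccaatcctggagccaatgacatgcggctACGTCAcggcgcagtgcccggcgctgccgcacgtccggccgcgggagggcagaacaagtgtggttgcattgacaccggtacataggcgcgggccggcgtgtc

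The NRF1 letters occurred in 2 of the 6 genes, once for Ndufa5 and at 2 places for Sdha. Over the 250 bases before the start, 3.75% of all 33469 promoters in the table held them, and 5.07% of the 21851 promoters of protein-coding genes. The ETS letters occurred in Uqcrc2 only, at 2 places, against 7.27% of all promoters and 9.01% of those of protein-coding genes. The CREB core occurred in Uqcrfs1 and Cycs, against 6.95% of all promoters and 7.9% of those of protein-coding genes. The searched motifs did not overlap one another in these 6 genes. Ndufv2 held none of the 3 motifs in these 250 bases. Only exact matches were searched, so a site with slightly different letters is missed, and a gene without a match may still hold a site. The Cycs stretch, for example, holds ccgcatgcgc, which is close to the NRF1 letters but is not marked. These matches describe letters and show no binding.

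All 8 probe sets passed the filter on low intensity and were tested, and all 8 lay in the brightest 10% of tested probe sets. No value of theirs was at the floor of 47.4 intensity units. Old was compared with young with limma on the log2 scale, with Benjamini-Hochberg adjustment over 5244 probe sets. Differences are old minus young on that scale with the standard error (SE). Of 5244 probe sets 0 passed an adjusted p of 0.05 (percent called 0), 394 (7.51%) had an unadjusted p under 0.05, and 0 of the 8 passed. Among the 8, the unadjusted p was under 0.05 and lower in old for 2, that of Ndufv2 and one of Uqcrfs1. Among all tested probe sets the share that was lower in old at that unadjusted p was 4.12%. Over the alternatives 1 to 3 of the 8 had an unadjusted p under 0.05 in either direction. Ndufv2 did in each except the bright arrays alone, as described below with the other probe sets. The brightness of a probe set depends on its probes, so the levels of different genes are not ranked.

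The arrays were scaled alike by the authors, with trimmed means between 499.63 and 499.99. The brightness of 9 probe sets for bacterial spike-in controls set old replicates 3 to 6 and young replicate 4 apart as bright from the other 6, called dim. The GAPDH control had a log2 ratio of 3' over 5' signal of 3.39 and 4.09 in old replicates 3 and 4 and at most 0.77 elsewhere. In old replicate 6 the brightest 2% of probe sets began at an intensity of 4993.5, against 7039.5 or more on the other arrays. It was the lowest array for 5 of the 8 probe sets, and young replicate 5 was the highest for 6 of them. In these bulk samples, fewer heart muscle cells and less of a transcript per cell cannot be told apart.

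Ndufv2 had a lower level in old ventricles than in young ones, and its 2 groups did not overlap. Its intensities were 8183.7, 4710.5, 8256.7, 5149.2, 5183.4 and 4126.8 in old replicates 1 to 6, against 11236.6, 10195.9, 11598.1, 9353.5 and 13520.0 in young replicates 1 to 5. Every old array lay below every young array, with old replicates 1 and 3 nearest to the young range. A gap of this kind in this direction was found in 22 probe sets, 0.42% of those tested. The log2 intensity was 12.48 ± 0.42 across the 6 old arrays and 13.44 ± 0.20 across the 5 young ones (mean and SD). The difference of -0.96 ± 0.28 (SE) is an old over young ratio of 0.516, with a 95% confidence interval of 0.344 to 0.772. It had the 24th smallest p of all tested probe sets (limma unadjusted p = 0.00274, adjusted p = 0.537). The interval excludes equal levels for this probe set taken alone, but the adjusted p did not pass.

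Because the groups did not overlap, any subset holding both groups puts the old mean of Ndufv2 below the young one. The fits below therefore show the size of the difference, and their sign adds no further support. Leaving out each array in turn gave -1.06 to -0.86. Without old replicates 3 and 4, the difference was -1.05 ± 0.30 (SE). It was -0.90 ± 0.31 (SE) among the dim arrays alone, where both old arrays lay below the 4 young ones. Among the bright arrays, where young replicate 4 is the sole young array, it was -0.77 ± 0.62 (SE, limma unadjusted p = 0.226), and all 4 old arrays lay below that array.

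**Figure D1:**
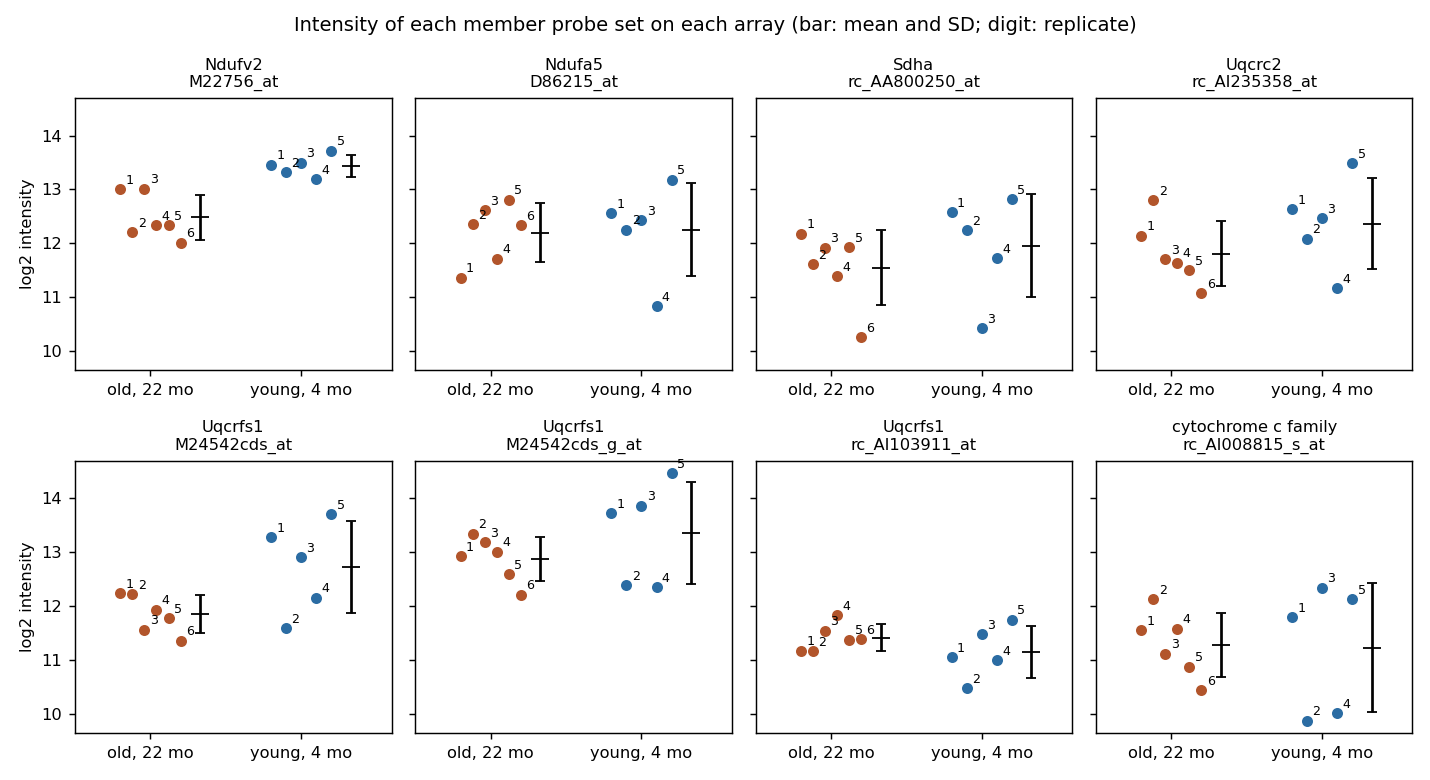
Log2 intensity of the 8 probe sets on every array, with old (22 months) left of young (4 months). Points are arrays labelled by replicate number, and the black bar is the group mean with its SD; the groups are apart only for Ndufv2, and old replicate 6 and young replicates 2 to 4 form low ends in several panels.

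Ndufa5, from the same arm of complex I, had nearly equal group means. It read 2623.9, 5219.2, 6257.7, 3342.7, 7191.3 and 5179.1 in old replicates 1 to 6, against 6023.4, 4864.3, 5516.3, 1825.2 and 9297.7 in young replicates 1 to 5. The young arrays held both the highest and the lowest value, so the old range lay within the young one. The difference was -0.05 ± 0.38 (SE), a ratio of 0.963 with a 95% confidence interval of 0.556 to 1.67 (limma adjusted p = 0.978). This interval runs well to both sides of 1, so it does not show that Ndufa5 was unchanged. Without young replicate 4, the lowest array, the difference was -0.41 ± 0.34 (SE). It turned to 0.11 ± 0.42 with a block for spike-in class and to 0.12 ± 0.38 after quantile normalization, so its direction is not settled. It was -0.75 among the dim arrays and 1.53 among the bright ones (limma unadjusted p = 0.0228, adjusted p = 0.999).

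Sdha had a lower mean in old, with wide spread in both groups. It read 4649.3, 3131.9, 3874.7, 2680.8, 3912.4 and 1217.1 in old replicates 1 to 6, against 6118.8, 4822.4, 1367.1, 3373.5 and 7243.1 in young replicates 1 to 5. In each group 1 array stood low, old replicate 6 and young replicate 3, and 3 young arrays lay above every old one. The difference was -0.41 ± 0.42 (SE), a ratio of 0.754 with a 95% confidence interval of 0.412 to 1.38 (limma adjusted p = 0.845). It was -0.79 ± 0.38 without young replicate 3, -0.15 ± 0.39 without old replicate 6, -0.19 ± 0.43 without young replicate 5 and -0.25 ± 0.45 without young replicate 1. It was -0.20 ± 0.46 with a block for spike-in class. The size of the Sdha difference thus depended on single arrays, although its sign was the same in each of these fits.

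Uqcrc2 had a lower mean in old and overlapping groups. It read 4516.0, 7137.3, 3331.0, 3199.0, 2900.2 and 2146.2 in old replicates 1 to 6, against 6329.3, 4315.6, 5673.2, 2290.1 and 11514.7 in young replicates 1 to 5. All old arrays except old replicate 2 lay below the young mean, and young replicate 4 read nearly as low as old replicate 6. The difference was -0.56 ± 0.38 (SE), a ratio of 0.680 with a 95% confidence interval of 0.391 to 1.18 (limma adjusted p = 0.753). Without young replicate 5, its highest array, the difference was -0.27, and without young replicate 4 it was -0.86 (limma unadjusted p = 0.0299, adjusted p = 0.499). With a block for spike-in class the difference was 0.00 ± 0.33 (SE), and it was -0.20 among the dim arrays and turned to 0.32 among the bright ones.

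The 3 probe sets of Uqcrfs1, the Rieske protein, disagreed. Both designed from the GenBank entry M24542 had lower means in old, and the one from the expressed sequence tag AI103911 had a higher mean in old. M24542cds_at read 4851.6, 4770.2, 3012.1, 3900.9, 3502.2 and 2612.3 in old replicates 1 to 6, against 9921.9, 3073.2, 7681.9, 4542.4 and 13349.0 in young replicates 1 to 5. Here 3 young arrays lay above every old one, and young replicates 2 and 4 lay among the old arrays. The difference was -0.88 ± 0.35 (SE), a ratio of 0.544 with a 95% confidence interval of 0.326 to 0.908 (limma unadjusted p = 0.0224, adjusted p = 0.56). The unadjusted limma p was 0.0675 without young replicate 1, 0.0883 without young replicate 5, 0.0564 with the replicate number as a block, 0.0577 without the intensity trend and 0.0587 without old replicates 3 and 4. With a block for spike-in class the difference was -0.58 ± 0.37 (SE, limma unadjusted p = 0.131).

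M24542cds_g_at, from the same entry, gave a smaller difference. It read 7770.6, 10335.9, 9306.5, 8274.4, 6186.0 and 4752.2 in old replicates 1 to 6, against 13539.6, 5346.6, 14847.2, 5220.3 and 22750.4 in young replicates 1 to 5. The same young replicates, 1, 3 and 5, lay above every old array. The difference was -0.48 ± 0.38 (SE, limma adjusted p = 0.783), with -0.20 without young replicate 5, -0.15 ± 0.39 with a block for spike-in class and 0.40 among the bright arrays.

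The probe set of the sequence tag, rc_AI103911_at, read 2299.7, 2283.7, 2976.5, 3652.5, 2648.5 and 2665.1 in old replicates 1 to 6, against 2121.0, 1422.7, 2841.1, 2032.3 and 3426.5 in young replicates 1 to 5. All 6 old arrays lay above the young mean, and the old range lay above the lowest 3 young arrays. The difference was 0.26 ± 0.30 (SE), a ratio of 1.2 with a 95% confidence interval of 0.782 to 1.84 (limma adjusted p = 0.855). With median centring it was -0.03 ± 0.35, and among the dim arrays it was -0.02, so its direction is not settled. No direction of Uqcrfs1 as a gene is therefore given.

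The distances between Uqcrfs1 probe sets on the same array are given as a description with no test, since they were compared after the disagreement had been seen. M24542cds_at minus rc_AI103911_at was 1.08, 1.06, 0.02, 0.09, 0.40 and -0.03 log2 units in old replicates 1 to 6, against 2.23, 1.11, 1.44, 1.16 and 1.96 in young replicates 1 to 5. Every old array lay below every young one, although old replicates 1 and 2 lay close to young replicates 2 and 4. It was 0.44 ± 0.51 across the 6 old arrays and 1.58 ± 0.49 across the 5 young ones (mean and SD), which puts the old mean -1.14 from the young one, or -0.61 among the dim arrays and -1.04 among the bright ones. For M24542cds_g_at minus rc_AI103911_at the group means differed by -0.74, and between both probe sets of M24542 by -0.40, and in each the groups overlapped. How often the groups separate for pairs of probe sets of other genes was not counted. For M24542cds_at minus rc_AI103911_at the lowest old arrays were old replicates 3 to 6, the 4 with bright spike-ins. Old replicates 3 and 4 also had the GAPDH log2 ratios of 3.39 and 4.09, and without these 2 arrays the group means differed by -0.95. The part of spike-in brightness or of the GAPDH ratio in the result was not tested beyond these values.

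**Figure D2:**
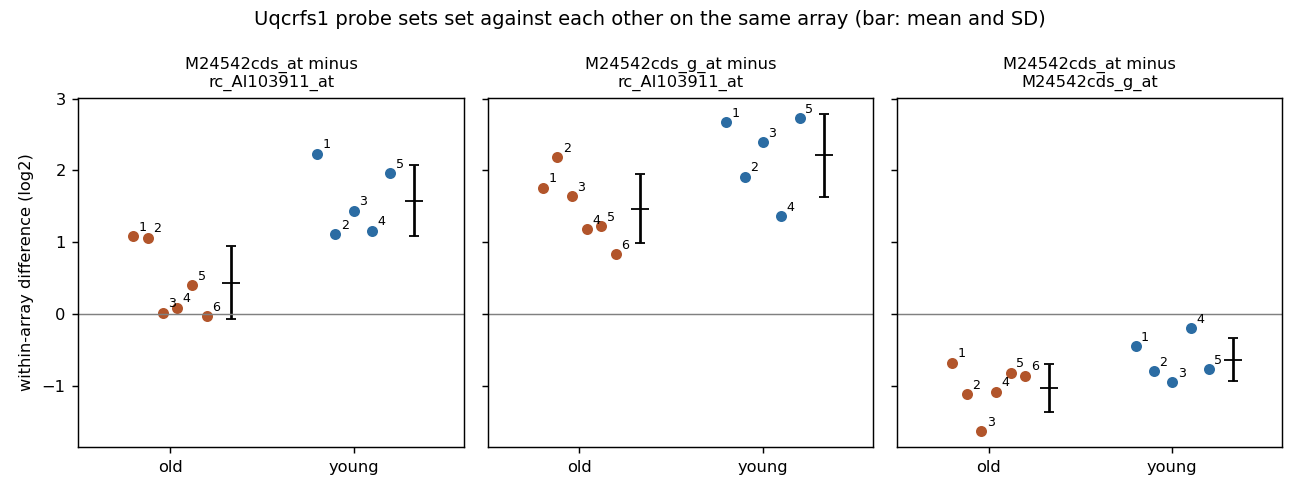
Differences between pairs of Uqcrfs1 probe sets on the same array, in log2 units, with old left of young. Points are arrays labelled by replicate, and bars are means with SD; in the left panel the 6 old arrays lie between -0.03 and 1.08 and the 5 young arrays between 1.11 and 2.23.

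The cytochrome c family probe set, rc_AI008815_s_at, had nearly equal means and the widest young spread of the 8. It read 3003.2, 4444.3, 2211.7, 3062.5, 1866.8 and 1376.2 in old replicates 1 to 6, against 3545.9, 935.0, 5184.7, 1034.6 and 4437.4 in young replicates 1 to 5. Young replicates 2 and 4 lay below every old array, and young replicate 3 lay above every old array. The coefficient of variation was 41.0% in old and 64.5% in young. The difference was 0.05 ± 0.45 (SE), a ratio of 1.03 with a 95% confidence interval of 0.538 to 1.99 (limma adjusted p = 0.982). It turned to -0.24 ± 0.54 with median centring, -0.29 ± 0.44 without young replicate 2 and -0.25 ± 0.45 without young replicate 4, so it has no settled direction.

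**Figure D3:**
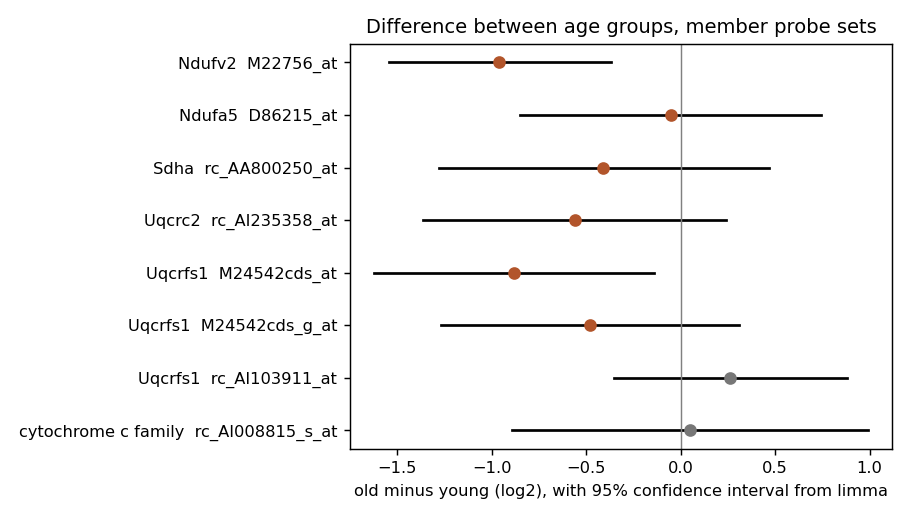
Old minus young difference of each of the 8 probe sets on the log2 scale (x axis), with its 95% confidence interval from limma. Only the intervals of Ndufv2 and of M24542cds_at of Uqcrfs1 leave out 0, before any adjustment for the 5244 probe sets tested.

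Across the 11 arrays, 4 of the 28 pairs of probe sets had a Pearson correlation that passed after adjustment. How often pairs of other, equally bright probe sets pass was not counted, so this count is not read as particular to these complexes. Of these, 3 were within complex III, including both probe sets of the M24542 entry, and 1 linked complex III to the cytochrome c family. Uqcrc2 and M24542cds_g_at of Uqcrfs1 correlated at Pearson's r = 0.88 (permutation p = 0.00051, adjusted p = 0.00607) and Spearman's rho = 0.86 (permutation p = 0.00122, adjusted p = 0.0171). Without old replicate 6 and young replicate 5, the arrays farthest from the median of Uqcrc2, r was 0.73. Within the 6 dim and the 5 bright arrays it was 0.86 and 0.96.

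M24542cds_g_at and the cytochrome c family probe set correlated at r = 0.86 (permutation p = 0.00065, adjusted p = 0.00607) and rho = 0.89 (permutation p = 0.00044, adjusted p = 0.0123). Without young replicates 3 and 5, r was 0.87, and it was 0.81 and 0.84 within the dim and bright arrays. The other 2 pairs that passed were M24542cds_at with Uqcrc2 (r = 0.81, permutation p = 0.00211, adjusted p = 0.0148, rho = 0.78, permutation p = 0.00624, adjusted p = 0.0567) and with M24542cds_g_at (r = 0.87, permutation p = 0.00044, adjusted p = 0.00607, rho = 0.75, permutation p = 0.0101, adjusted p = 0.0567). Without their 2 farthest arrays these were 0.59 and 0.72. They were 0.78 and 0.96 within the 6 dim arrays and 0.07 and 0.03 within the 5 bright ones. For these last 2 pairs the relation was thus seen among the dim arrays and not among the bright ones, which are too few to settle it. Probe sets of 1 array share its scaling and hybridisation, and those of 1 entry share its sequence.

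M24542cds_g_at and rc_AI103911_at of Uqcrfs1 correlated at only 0.47 over all arrays (permutation p = 0.15, adjusted p = 0.28, rho = 0.41, permutation p = 0.215, adjusted p = 0.369). Without young replicates 3 and 5 the value was 0.22. Within the spike-in classes it was 0.90 among the 6 dim arrays and 0.71 among the 5 bright ones. Between Ndufv2 and Ndufa5, of the same arm of complex I, r was 0.11 (permutation p = 0.749, adjusted p = 0.798, rho = 0.33, permutation p = 0.327, adjusted p = 0.457) and 0.23 without old replicates 2 and 6. It was 0.44 among the dim and -0.47 among the bright arrays.

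The genes most like each member were taken as the highest Pearson correlations over the 11 arrays among 4303 probe sets with a single symbol, and selection from so many makes high values likely. Ndufv2 was most like Ptov1 (0.86), Calr, the calcium-binding chaperone calreticulin (0.85), and Gstk1, a mitochondrial and peroxisomal glutathione transferase (0.84). With the group means removed these were 0.68, 0.62 and 0.49. Ndufa5 was most like Sod3, the extracellular superoxide dismutase (0.86), Ube2b, a ubiquitin-conjugating enzyme (0.84), and Lpl, the lipoprotein lipase (0.79). Sdha was most like Dnaja4, a co-chaperone (0.87), Ndufa4 (0.86) and Ndrg2 (0.86).

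For complex III, Uqcrc2 was most like Lpl (0.91), Acadm, the medium-chain acyl-CoA dehydrogenase (0.89), and Bsg, the chaperone of lactate transporters (0.88). M24542cds_g_at of Uqcrfs1 was most like Etfa, which passes electrons from fatty acid oxidation towards ubiquinone (0.92), Pdlim1, a cytoskeletal adaptor (0.91), and Mpc1, of the mitochondrial pyruvate carrier (0.89). The cytochrome c family probe set was most like Psma2, a proteasome subunit (0.94), Eno1, a glycolytic enolase (0.93), and Nnt, the mitochondrial transhydrogenase (0.93). With the group means removed, the values for these 9 genes ran from 0.86 to 0.97.

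The other genes of complex I lay on the same side as Ndufv2. The list held 49 subunits and assembly factors, of which 26 genes had a tested probe set with a single symbol, and the probe set with the highest mean stood for its gene. The old mean was lower for 26 of 26 genes, with a median difference of -0.65, against 50.3% lower and a median of -0.01 over all 3206 genes. Besides Ndufv2 and Ndufa5, the old mean was lower for 24 of 24 genes, with the same median of -0.65. Ndufa5 counts as lower at -0.05, although its direction is not settled. Over all tested probe sets 50.6% were lower, and over the brightest 10% of them 66.7% were lower with a median of -0.163. None of the 26 passed the adjusted threshold, and 6, including Ndufv2, were lower at an unadjusted p under 0.05, against 3.68% of all 3206 genes. That count was 15 without young replicate 3, 3 without young replicate 1 and 2 without young replicate 5, and it ran from 1 to 16 over all alternatives. The list overlaps the mitochondrial genes already known to lie lower in these arrays, so its count is not independent evidence of direction.

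The electron input module of complex I, which oxidises NADH, had 5 of 5 genes lower, with a median of -0.96, which is the difference of Ndufv2 itself. Besides Ndufv2 it held Ndufs4, an accessory subunit, at -1.02 ± 0.41 (SE, limma adjusted p = 0.56), and Ndufs1, Ndufv3 and Ndufs6 at -1.04 ± 0.94, -0.54 ± 0.28 and -0.41 ± 0.41. Ndufs1 was at the floor in young replicate 4. For Ndufs4 the 2 other probe sets differed by -0.45 ± 0.49 and 1.02 ± 0.73, so its probe sets disagreed. The quinone module, which passes the electrons to ubiquinone, had 3 of 3 genes lower, from Ndufs7, an iron-sulfur subunit, at -0.86 ± 0.32 (SE, limma adjusted p = 0.56) to Ndufa5 at -0.05. Ndufs7 read 11.67 ± 0.60 across the 6 old arrays and 12.53 ± 0.41 across the 5 young ones (mean and SD) on the log2 scale.

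Of the membrane arm, 11 of 11 Ndufb and Ndufc genes were lower, between -1.64 and -0.08, with a median of -0.62. Ndufb9 was at 10.34 ± 0.97 across the 6 old arrays and 11.98 ± 1.81 across the 5 young ones (mean and SD), a difference of -1.64 ± 0.63 (SE, limma adjusted p = 0.56). The other 7 genes had a median of -0.65. They include Ndufa4, which is known to belong to cytochrome oxidase despite its name, at -0.36 ± 0.39, and Ndufab1, the mitochondrial acyl carrier protein, at -0.65 ± 0.39. Counting all 51 tested probe sets of complexes I to III, 47 were lower, and in 4 genes (Ndufaf3, Ndufb8, Ndufs4 and Uqcrfs1) 1 probe set went against the one that stood for the gene.

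**Figure D4:**
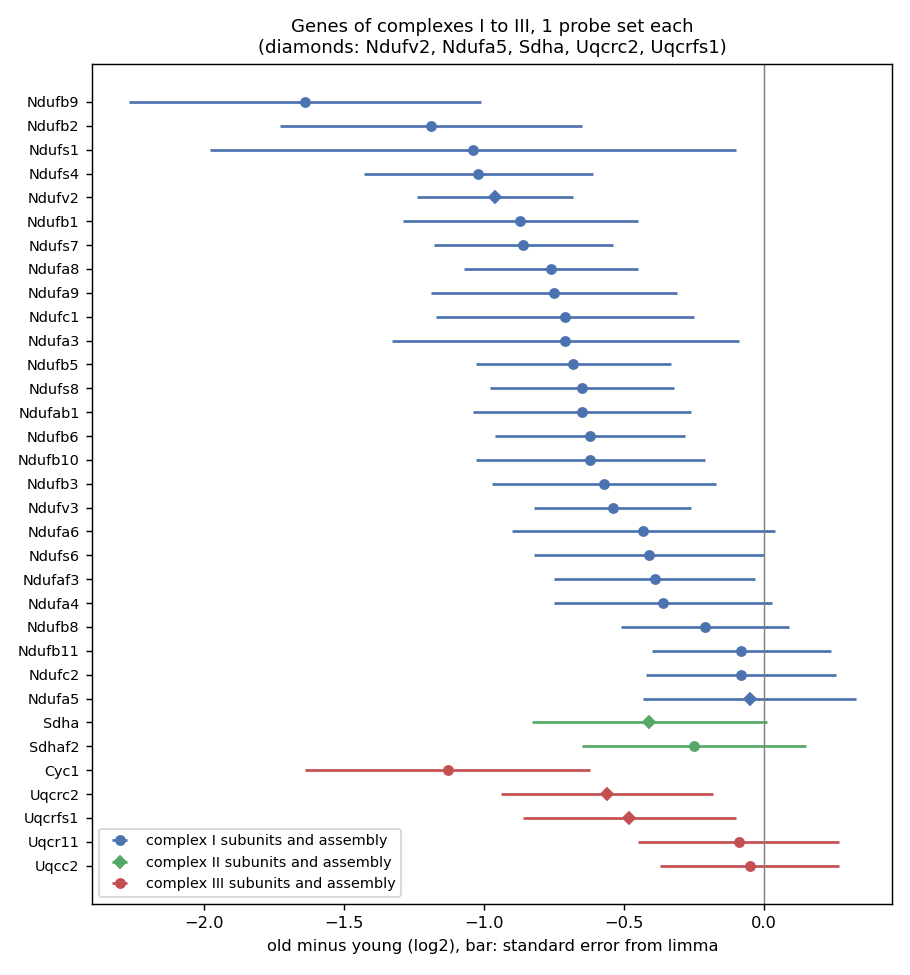
Old minus young difference on the log2 scale (x axis) for each tested gene of complexes I (blue), II (green) and III (red), 1 probe set per gene, with the standard error as a bar. Uqcrfs1 is drawn by M24542cds_g_at; all points lie below 0, from -1.64 for Ndufb9 to -0.05 for Ndufa5 and Uqcc2; diamonds mark Ndufv2, Ndufa5, Sdha, Uqcrc2 and Uqcrfs1.

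The number of complex I genes lower in old ran from 23 to 26 of 26 over the alternatives. It was 23 with a block for spike-in class, 25 of 26 without old replicates 3 and 4, 24 among the dim arrays, 24 among the bright arrays and 24 without old replicate 6. The median of the list per array, relative to the young mean, was -0.85, -0.65, -0.37, -0.61, -0.29 and -1.02 in old replicates 1 to 6, against 0.49, -0.34, -0.85, 0.03 and 0.78 in young replicates 1 to 5. Young replicate 3 was as low as old replicate 1 and young replicate 2 lay among the old arrays, so the groups overlapped. Without young replicate 5 the median difference of the list was -0.45.

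Complex II had 2 tested genes, Sdha and its assembly factor Sdhaf2, the second at -0.25 ± 0.40 (SE, limma adjusted p = 0.898). Complex III had 5 of 5 genes lower with a median of -0.48, and 0 passed. This takes Uqcrfs1 by M24542cds_g_at alone, whose own difference is that median, although its rc_AI103911_at was at 0.26. The 3 genes besides Uqcrc2 and Uqcrfs1 were lower with a median of -0.09. Cyc1, the cytochrome c1 that hands electrons to cytochrome c, was at 12.25 ± 1.15 across the 6 old arrays and 13.38 ± 1.01 across the 5 young ones (mean and SD), a difference of -1.13 ± 0.51 (SE, limma adjusted p = 0.639). Uqcr11 and the assembly factor Uqcc2 differed by -0.09 ± 0.36 and -0.05 ± 0.32. Of complex III, 3 of 5 genes were lower after quantile normalization, which itself moved the median of all probe sets to -0.12, and 2 of 5 among the bright arrays. The complex III median was -0.20 without young replicate 5, -0.73 without young replicate 4, -0.22 among the dim arrays and -0.15 with a block for spike-in class. Median centring moved the median of all probe sets to -0.30, the complex I median to -0.94 and the complex III median to -0.77.

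The complexes that follow cytochrome c also had more genes lower than higher. Beside these counts, 50.3% of all 3206 genes were lower. Of the brightest 10% of tested probe sets, 66.7% were lower with a median of -0.163. The ATP synthase values below lie near those of the bright probe sets and are not read as particular to that complex. Of cytochrome oxidase 12 of 12 genes were lower with a median of -0.37, from Cox8a at -0.92 ± 0.33 (SE, limma adjusted p = 0.56) to Cox6c at -0.06 ± 0.34, with Cox8b at -0.60 ± 0.33, Cox7a2l at -0.83 ± 0.46 and Cox5b at -0.56 ± 0.35. Of the ATP synthase 8 of 10 were lower with a median of -0.20, and Atp5f1d at -1.06 ± 0.30 (SE, limma adjusted p = 0.537) was, like Ndufv2, lower in every old array than in any young one. Atp5f1c and Atp5pd differed by -0.42 ± 0.32 and -0.37 ± 0.30, and Atp5if1, the inhibitor of the enzyme, by 0.33 ± 0.33. Differences between these lists were not tested. The oxidase median was -0.13 without old replicate 6, -0.11 without young replicate 4 and -0.61 without old replicate 5. It was -0.66 with a block for spike-in class and -0.93 among the bright arrays, where the complex I median was -0.54, so the order of the medians was not the same in every setting. Per array, the oxidase list was highest in old replicate 5 and young replicate 4, at 0.52 and 0.50, whereas complex I was highest in young replicates 5 and 1.

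**Figure D5:**
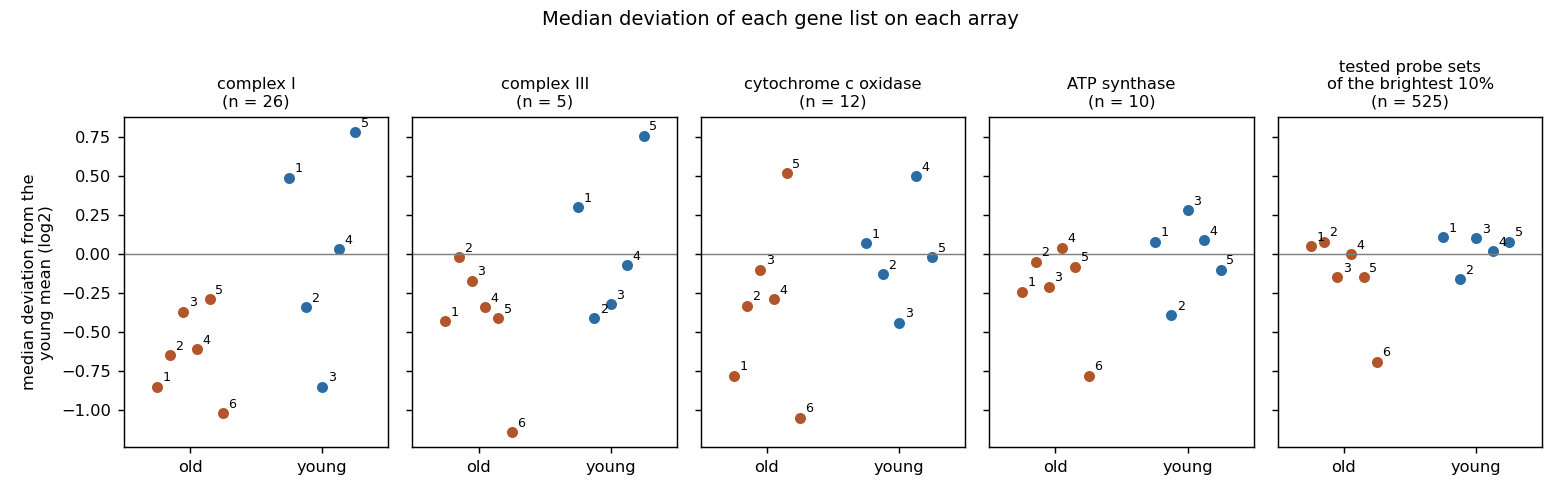
Median deviation of each list from the young mean on every array, in log2 units, with old left of young and arrays labelled by replicate. Old replicate 6 is the lowest array in all 5 panels, at -1.02 for complex I and at -0.69 for the brightest 10% of tested probe sets.

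Other donors of electrons to ubiquinone went both ways in 4 tested genes, 3 lower and 1 higher. Gpd2, the mitochondrial glycerol phosphate dehydrogenase, differed by -0.81 ± 0.39 (SE), Etfdh by -0.79 ± 0.49, Etfa by -0.23 ± 0.34, and Chdh, the choline dehydrogenase, by 1.11 ± 0.64 (limma adjusted p = 0.661 to 0.891). Other mitochondrial membrane and import proteins were lower in 10 of 12 genes with a median of -0.18, including Slc25a11, the oxoglutarate carrier, at -0.71 ± 0.38, Vdac1, the outer membrane channel, at -0.54 ± 0.40, Hspd1 at -0.48 ± 0.38 and Slc25a5 at -0.39 ± 0.41. That median is close to the -0.163 of the brightest 10% of tested probe sets, of which 66.7% were lower. Of the regulators of mitochondrial gene expression 2 were tested, Ppara at -1.15 ± 0.60 and Esrra at -0.53 ± 0.61. The 4 tested partners of cytochrome c in apoptosis all had higher means in old, with Bcl2 at 1.23 ± 0.66, Diablo at 0.42 ± 0.50, Bcl2l1 at 0.32 ± 0.39 and Bak1 at 0.19 ± 0.39, and 0 of the genes in these 4 lists passed.

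Markers of the cells in the samples were read beside these lists. Heart muscle markers were lower in 8 of 11 genes with a median of -0.25, and their summed intensity ran from 395833 to 641286 in old and from 385694 to 596781 in young. Red cell markers were higher in 3 of 3 genes, with sums of 18388 to 228869 in old and 1837 to 111959 in young. Markers were also higher in 4 of 7 genes for fibroblasts, 4 of 5 for smooth muscle, 2 of 4 for macrophages and granulocytes, 3 of 5 for fat cells and 5 of 6 for atrial and skeletal muscle, and lower in 3 of 3 for endothelium. Their sums ran from 25562 to 66629 in old and 29118 to 79249 in young for fibroblasts, and from 6717 to 20682 and 8576 to 15893 for smooth muscle. For macrophages and granulocytes they ran from 2404 to 36830 in old and 1506 to 2957 in young, for fat from 7520 to 12998 and 7531 to 15562, for atrial and skeletal muscle from 13393 to 102523 and 9111 to 40956, and for endothelium from 348 to 1738 and 1419 to 1957. The highest old intensity was 35867.8 for Lyz2 and 77031.4 for Myl7. The upper ends in old for macrophages and granulocytes and for atrial and skeletal muscle thus rest largely on 1 gene each. Other sums also lean on bright genes, such as Dcn for fibroblasts (19139.9 to 49850.4 in old). For smooth muscle, Des read 7676.2 to 14667.9 in young. A sum is therefore not a measure of how many cells of a type were present. Some single markers had groups that did not overlap, and they are named after their values were seen. Lower in every old array than in any young one were Ckm, the muscle creatine kinase, at -0.67 ± 0.30 (SE, limma adjusted p = 0.614), and Des, the muscle intermediate filament desmin, at -0.86 ± 0.33 (SE, limma adjusted p = 0.56). Higher in every old array were Lum, the matrix proteoglycan lumican, at 1.19 ± 0.37 (SE, limma adjusted p = 0.537), and Pdgfra, a growth factor receptor of fibroblasts, at 0.60 ± 0.31 (SE, limma adjusted p = 0.661), a gap found in 0.553% of tested probe sets. The other fibroblast markers went both ways, with Fn1 and Dcn at 0.72 and 0.21 and Col3a1, Col1a1 and Col1a2 at -0.91, -0.74 and -0.22. Des was the only smooth muscle marker that was lower, while Tagln, Cnn1, Acta2 and Myh11 were at 1.12, 1.10, 0.99 and 0.25. Ckm, Des, Lum and Pdgfra set old and young apart as Ndufv2 did. None of the markers passed the adjusted threshold. The lowest intensities of some markers lay under the floor, such as 9.3 for Kdr in old and 15.2 for Cnn1 in young. The part of these cells in the respiratory chain values was not tested.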

How the data were processed

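Total RNA from rat heart ventricle was read on 11 Affymetrix arrays, 6 old and 5 young, grouped by title and age in the labels. The authors deposited 1 linear intensity per probe set and array, and the trimmed means show a common scaling per array; the sources used here do not name the software, background correction or detection calls. From there, any value under 47.4, the 20th percentile over the arrays, was set to it before taking log2. The 59 control probe sets and those with a mean under the 40th percentile were left out. The groups were tested with lmFit and eBayes (trend) of limma 3.58.1 in R 4.3.3, with p adjusted by Benjamini-Hochberg over 5244 probe sets. Precision is limited by how many arrays there are (median SE 0.558). Exact permutation tests used all 462 splits, and correlations 100000 permutations (numpy 2.4.6).

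Symbols came from GEO's platform annotation and promoters from RefSeq GRCr8. The genes and lists were chosen with earlier results of these data known. Named were every probe set of the 6 genes, up to 4 genes with the smallest p in each pathway list, and the 3 genes most like each member; others were named after their values were seen. In 5 simulated runs of old against young over 5244 independent probe sets, limma found 7.6% of 2-fold, 44.8% of 4-fold and 82.8% of 8-fold changes, with 24 of 598 calls false. Alternatives were other floors, filters and normalizations, no trend, array weights, blocks, and leaving out arrays. Replicate numbers are shared between the groups, but same-numbered arrays did not deviate together (correlations of -0.251 to 0.246), so they are not treated as pairs.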

Additional observations from a re-analysis of the deposited data

Results flagged for a closer look

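Among the probe sets named, 8 of 128 groups of arrays held 1 array far from the others by Dixon's criterion, where chance flags about 5%. Cyc1 read 11.65 in young replicate 3, against 13.43 to 14.14 in the other young arrays. Uqcr11 read 15.09 in old replicate 5, against 13.71 to 14.12 in the other old arrays, and 15.54 in young replicate 4, against 13.62 to 14.14 in the other young arrays. Cox7a2l read 8.66 in young replicate 3, against 10.57 to 11.08, and Esrra 6.32 in young replicate 3, against 8.47 to 9.02. Ndufs1 was at the floor, 5.57, in young replicate 4, against 9.97 to 10.38 in the other young arrays. Ckm read 13.06 in old replicate 3, against 14.05 to 14.39 in the other old arrays. Ube2b read 7.51 in young replicate 4, against 10.26 to 11.30. All are log2 intensities, and the arrays involved are young replicates 3 and 4 and old replicates 3 and 5. None of the 8 probe sets of the 6 genes was set apart in this way.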

How the results depend on the processing

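No probe set of the 6 genes passed the adjusted threshold under any of 24 alternatives. Ndufv2 was lower in old under 25 of 25 alternatives (-1.25 to -0.77), as were Sdha (-0.79 to -0.12) and M24542cds_at of Uqcrfs1 (-1.17 to -0.50). Other floors, other filters, the fit without trend and the permutation test left these differences unmoved, so these settings are no check of direction. For Ndufv2, leaving out arrays could not change the sign either, since its groups did not overlap. By exact permutation without adjustment, Ndufv2 (-0.96, p = 0.00649) and M24542cds_at (-0.88, p = 0.0498) were under 0.05. Ndufa5 turned to 0.12 with quantile normalization, 0.11 with a block for spike-in class and 1.53 among the bright arrays, and ran from -0.41 to 0.18 with each array left out. The cytochrome c family probe set turned to -0.24 with median centring and -0.05 with array weights, and ran from -0.29 to 0.33 with each array left out. rc_AI103911_at turned to -0.03 with median centring and -0.02 among the dim arrays. Among the bright arrays Uqcrc2 turned to 0.32, M24542cds_g_at to 0.40 and the complex III median to 0.10. The cause of these turns was not tested. Over all probe sets the calls were 0 to 2 with each array left out (2 without old replicate 5), 1 among the dim and 5 among the bright arrays. With the replicate block, which drops old replicate 6, Ndufv2 differed by -0.86 (limma adjusted p = 0.532) and 0 calls were made. The old minus young difference of M24542cds_at minus rc_AI103911_at, given with no test, lay between -1.27 and -0.61.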
